A study of Antirrhinum majus with 21 samples.

Results

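In the corolla of snapdragon (*Antirrhinum majus*), the 60 genes described here had RNA levels most consistently higher with a dominant ROSEA (ROS) allele than in white flowers. They are 60 of 24674 genes tested, from 37234 genes in the files. ROSEA encodes MYB transcription factors that switch on genes of anthocyanin synthesis, the magenta pigment of the petal. ELUTA (EL) is a linked locus whose dominant allele restricts where in the corolla that pigment is made. The enzymes of the pathway are controlled largely through transcription, so the RNA of pigment genes is known to follow the activity of such MYB factors in petals. No deposited file links an ID to a gene name, so the members appear under their IDs without a function, the lists of pigment and petal genes could not be run, and the corolla label could not be checked against marker genes.

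Corollas of 21 plants were sequenced, 3 plants for each of 7 genotypes, 1 library per plant. The labels give 1 allele per locus and no zygosity. The corollas came from 5 to 10 mm buds of stage 12 to 13, taken from plants on outside benches. ROSji7_elji7 (magenta) carried the dominant ROS and the recessive el of stock line JI7, and ROSji7_ELstr (eluta phenotype) joined the JI7 ROS allele to the dominant EL of *A. m. striatum*. ROSpse_elpse (magenta) carried dominant ROS and recessive el from *A. m. pseudomajus*, and ROSpse_ELstr (eluta) carried that ROS allele with the *striatum* EL. The white genotypes were rosdor_eldor, with both recessive alleles from the stock line rosea-dorsea, and rosstr_ELstr, with recessive ros and dominant EL from *striatum*. The pale genotype rosrec_elpse had a recombinant ROS allele, from *striatum* upstream and *pseudomajus* downstream, with the recessive *pseudomajus* el. The genotypes thus differ in the source of their alleles as well as in dominance. In whole corollas, fewer cells that express a gene and less RNA per cell cannot be told apart.

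The members were chosen by measured values. For each gene, CPM (reads scaled to a common library size by TMM) was put on a log2(CPM + 0.5) scale and averaged per genotype. The score was the lowest mean among the 4 dominant ROS genotypes minus the higher of the 2 white means. The 60 highest scores were taken among 19113 genes that had a mean of at least 1 CPM in each of the 4 dominant genotypes and that were not placed on ros_assembly, the assembly sequence named after the locus, or on scaffold1195, scaffold460, scaffold808, scaffold1088 or scaffold383. All 60 members passed the filter on low counts, which the rule itself ensured. The pale libraries had no part in the choice. The last members inside the list, AnMG0003777610 and AnMG0006868800, scored 0.45 and 0.44, and the first genes outside it, AnMG0000594800 and AnMG0508632500, both scored 0.44, so the list ends within a continuous range.

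The libraries held between 8926585 and 41860890 estimated reads, fewest in rosdor_eldor replicate 1 and most in rosstr_ELstr replicate 1. Plant ID prefix and genotype were largely joined: each genotype came from 1 prefix, except rosdor_eldor, whose replicates 1, 2 and 3 came from A181, A174 and A182. Cuts at 3000 and 8000 split the library numbers into a low series (5 libraries), a middle series (13) and a high series (3). The labels do not give the meaning of these numbers, and rosrec_elpse had no library in the middle series. The low series is not 1 run of numbers. It joins 1450 and 1452 (ROSpse_elpse replicate 1, ROSji7_ELstr replicate 3) with 2488, 2492 and 2493 (replicate 1 of ROSpse_ELstr, rosrec_elpse and rosdor_eldor). The white plant rosdor_eldor replicate 2 stood apart in the members. Their median was 2.97 in it on the log2(CPM + 0.5) scale, within the range of the 12 dominant ROS libraries (2.79 to 3.31), against 1.94 and 0.91 in replicates 1 and 3 and 1.37 to 1.67 in rosstr_ELstr. Its median over all genes tested, 3.70, lay within the range of the 21 libraries, 3.59 to 3.79. In this plant 52 of the 60 members exceeded their lowest dominant ROS library, against 20 to 28 members in each of the other 5 white plants. Of all genes tested, 96.4% did so in this plant and 83.6% to 93.1% in the other white plants, so the members' share was under that of all genes in every white plant, and closest to it in this one. A lower share in the members follows in large part from the rule, which chose them low in white plants. Replicate 3 of rosdor_eldor lay at the other end, with the lowest median, 0.91, and was the lowest of its genotype in 35 members. Without replicate 3 the rule kept 29 of the 60 members, and without replicate 2 it kept 38, so the list leans on both plants. Most edgeR counts, the main counts without overlap and the ratios of means that rest on rosdor_eldor are also given without replicate 2. DESeq2 counts, counts by unadjusted p and adjusted p values of single genes against rosdor_eldor are not.

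**Figure D1:**
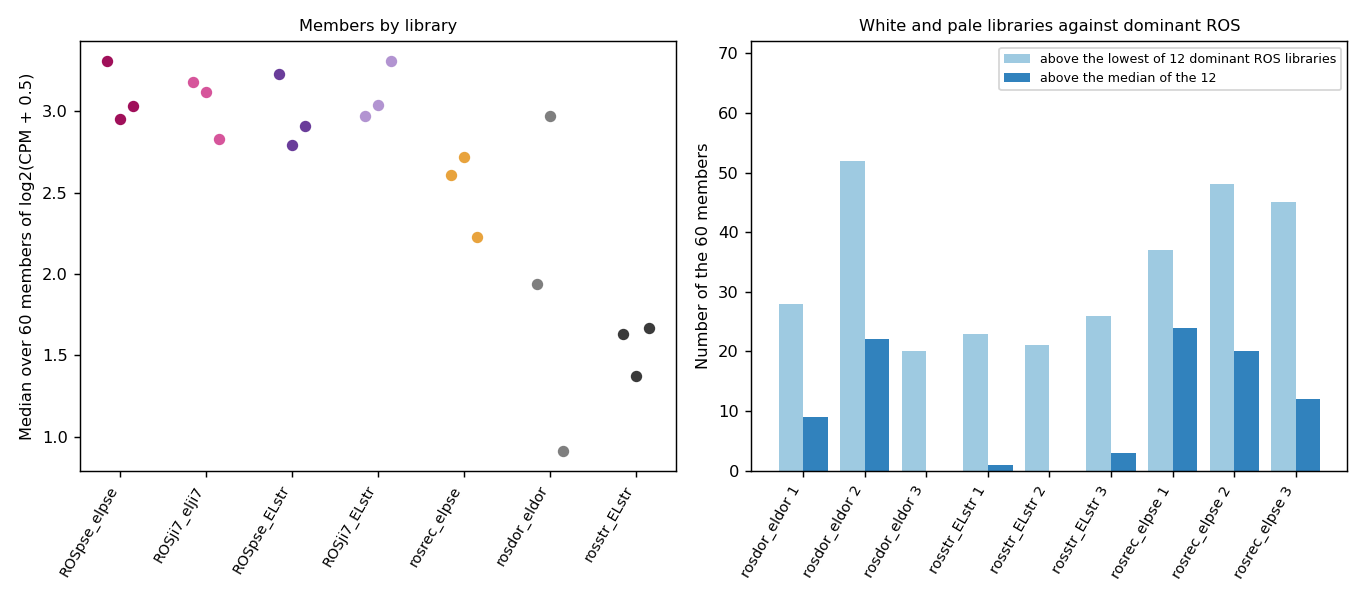
Left, the median over the 60 members of log2(CPM + 0.5) in each of 21 libraries, 1 point per plant, by genotype. Right, for each white and pale library, how many of the 60 members exceeded the lowest, or the median, of the 12 dominant ROS libraries. The white plant rosdor_eldor replicate 2 (2.97) lies among the dominant ROS plants (2.79 to 3.31), while the pale plants lie at 2.23 to 2.72.

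The first 6 members led the list by score. Their scores were 4.32, 3.10, 3.04, 2.98, 1.76 and 1.22 log2 units, and the next member scored 0.86. They were AnMG0008107300 (scaffold1533, 330318 to 332780, minus strand), AnMG0608642500 (scaffold199, 304934 to 308639, plus), AnMG0005507800 (scaffold16, 708045 to 709620, plus), AnMG0005604500 (scaffold2068, 59880 to 62033, minus), AnMG0004646600 (scaffold1168, 274858 to 276765, plus) and AnMG0001091300 (scaffold1335, 81356 to 83345, plus). Coordinates are 1-based on the JICv1 assembly, and the 6 genes lie on 6 different sequences. This leading group was set apart at a score of 1 after the values were seen. The scores 1.76 and 1.22 lie nearer to the next member, at 0.86, than to the fourth, at 2.98. Under all 23 other settings of the rule, each of the 6 was again among the 60 highest, whereas 29 to 59 of all 60 were.

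AnMG0008107300, the member with the highest score, had 280, 69.0 and 144 CPM in the 3 ROSpse_elpse plants, 18.8, 148 and 37.0 in ROSji7_elji7, 65.6, 68.1 and 9.11 in ROSpse_ELstr, and 69.8, 80.7 and 36.9 in ROSji7_ELstr. In rosstr_ELstr it had 0.441, 0 and 0.396 CPM, and in rosdor_eldor 0, 21.5 and 0. The pale plants had 97.4, 80.6 and 45.4 CPM. The gene was thus almost silent in 5 of 6 white plants, where 3 reads would give 0.379, 0.0847 and 0.0997 CPM in rosdor_eldor replicates 1 and 3 and rosstr_ELstr replicate 2, the libraries at 0, and the other white plant, rosdor_eldor replicate 2, lay above the lowest dominant plants. AnMG0608642500 had 483, 188 and 176 CPM in ROSpse_elpse, 34.0, 192 and 35.8 in ROSji7_elji7, 130, 90.3 and 24.2 in ROSpse_ELstr and 50.9, 76.7 and 96.7 in ROSji7_ELstr. It had 178, 97.0 and 43.0 CPM in the pale plants, 7.08, 40.5 and 0.734 in rosdor_eldor and 4.69, 1.36 and 8.02 in rosstr_ELstr. Here again rosdor_eldor replicate 2 was the white plant that reached the dominant ROS range.

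AnMG0005507800 was the most abundant member per length, with a mean of 467 TPM over the dominant ROS genotypes and 33.8 TPM over the white ones. It had 1160, 412 and 355 CPM in ROSpse_elpse, 56.0, 354 and 80.7 in ROSji7_elji7, 429, 129 and 61.7 in ROSpse_ELstr, and 117 to 248 in ROSji7_ELstr. The white plants had 31.6, 47.5 and 1.41 CPM in rosdor_eldor and 18.8, 4.12 and 27.2 in rosstr_ELstr, and the pale plants 485, 276 and 178. It is the gene of the 6 whose 12 dominant ROS libraries all lay above the 6 white ones. Without rosdor_eldor replicate 2, 5 of the 6 had no overlap.

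AnMG0005604500 ran from 48.8 to 1170 CPM over the 12 dominant ROS plants, from 1.24 to 99 over the 6 white ones and from 167 to 510 over the pale ones. AnMG0004646600 had 386, 140 and 64.2 CPM in ROSpse_elpse, 16.1, 83.0 and 26.0 in ROSji7_elji7, 46.4, 38.8 and 20.5 in ROSpse_ELstr, and 38.7, 52.3 and 44.0 in ROSji7_ELstr. It had 42.5, 37.8 and 26.4 CPM in the pale plants, and 6.07 to 18.1 in the white ones. AnMG0001091300 had the smallest contrast of the group, with 50.1 to 863 CPM in dominant ROS, 21.5 to 93.1 in white and 108 to 461 in pale plants. In these 3 genes the white range overlapped the dominant ROS range.

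**Figure D2:**
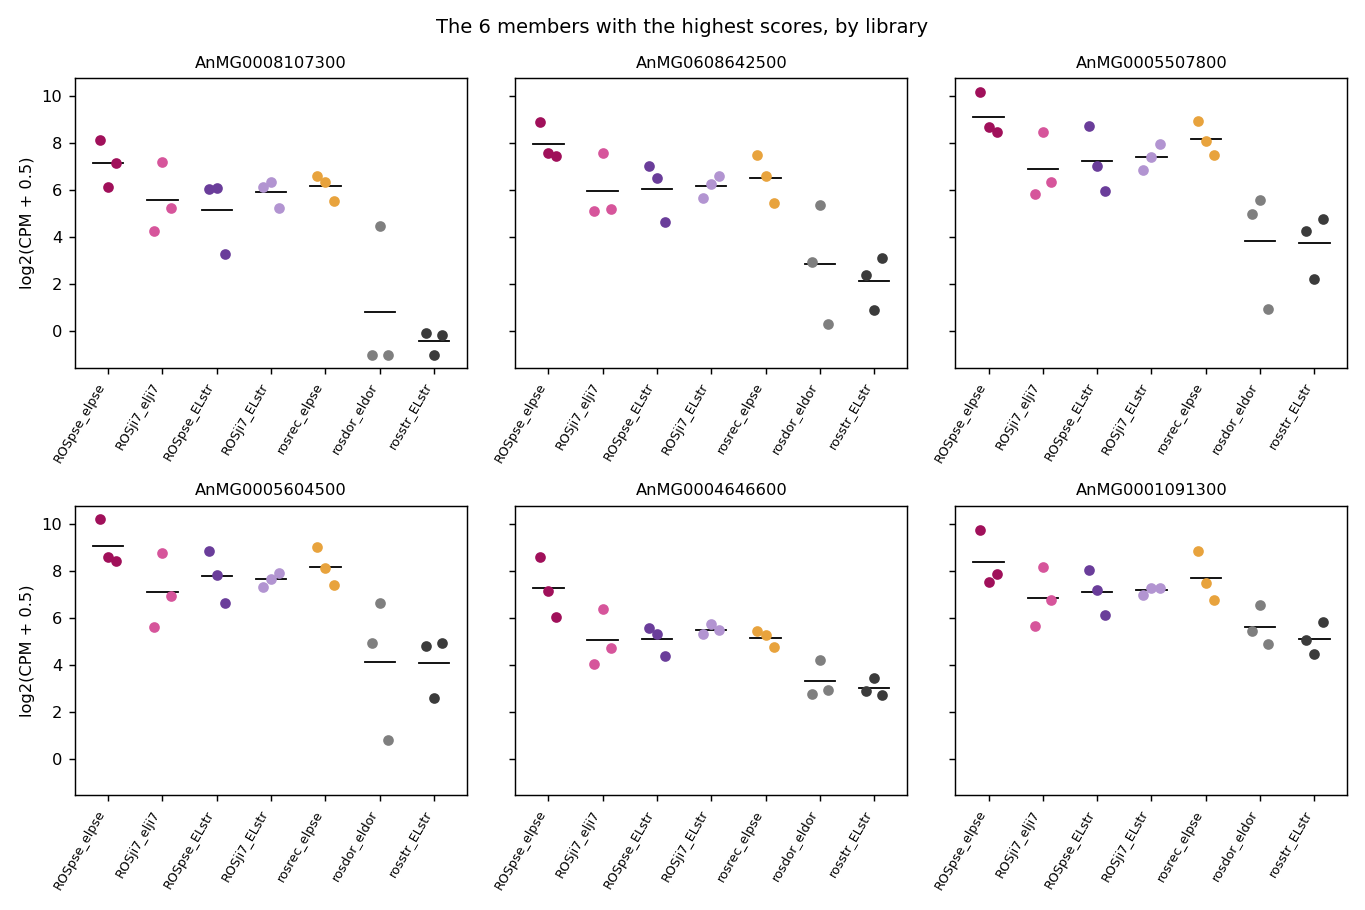
Expression of the 6 members with the highest scores in each of 21 plants, as log2(CPM + 0.5), with 1 point per plant in the order of replicates 1 to 3 and a line at the genotype mean. ROSpse_elpse has the highest mean in all 6 panels, the white genotypes the lowest, and the pale rosrec_elpse lies with the dominant ROS genotypes.

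The order of genotypes was much alike in the 6 genes. By mean CPM, ROSpse_elpse was highest and rosstr_ELstr lowest in all 6, with rosdor_eldor next to lowest in all 6. The order of the white genotypes rested on rosdor_eldor replicate 2: without it, the rosdor_eldor means of 5 of the genes were 0.757 to 0.987 times those of rosstr_ELstr, and AnMG0008107300 had no reads in rosdor_eldor. Pale rosrec_elpse came second in 5 of the 6 and after both JI7 genotypes in AnMG0004646600. ROSpse_elpse means were 2.42 to 4.72 times those of ROSji7_elji7, 2.40 to 5.59 times those of ROSpse_ELstr and 1.71 to 5.53 times those of rosrec_elpse. ROSji7_elji7 and ROSji7_ELstr means had ratios of 0.913 to 1.17. These orders rest on widely spread plants: ROSpse_elpse replicate 1 was the highest of its genotype in all 6 genes, and all 3 ROSpse_elpse plants exceeded all 3 ROSji7_elji7 plants in 1 of the 6 and all 3 ROSpse_ELstr plants in 3 of the 6. They exceeded all 3 pale plants in 1 of the 6. Of 36 pairs of neighbours in these orders, 6 had no overlap between their plants: 5 were the lowest dominant genotype above rosdor_eldor, and 1 was ROSpse_elpse above ROSji7_ELstr in AnMG0004646600.

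The comparison of dominant ROS with white corollas chose the members, so its counts describe the choice and support nothing. For the mean of the dominant genotypes against the mean of the white ones, all 60 members were higher, by a median log2 fold change of 1.25 (range 0.48 to 5.66; median over all genes tested 0.00). Single genotypes could differ by mean CPM. For example, rosdor_eldor exceeded ROSji7_elji7 in AnMG0609303800 (12.2 against 11.7) and ROSpse_elpse in AnMG0006430300 (7.57 against 6.17). Both genes had a rosdor_eldor plant at 0, which lowers a mean of log2 values, as the rule used, more than a mean CPM. Of the 60, 10 passed an edgeR adjusted p under 0.05, where 0.936% of all genes did. The 12 dominant ROS libraries all exceeded the 6 white ones in 2 members, AnMG0005507800 and AnMG0005458300, against 0.0243% of all genes (6 genes). Without rosdor_eldor replicate 2 the counts were 20 called, where 1.98% of all genes were, and 17 without overlap, where 0.219% of all genes (54) were. The called count was 4 without rosdor_eldor replicate 3 or rosstr_ELstr replicate 1, where 62 and 123 of all genes were called. It was 5 without rosdor_eldor replicate 1 or rosstr_ELstr replicate 2, where 245 and 149 of all genes were called. The count without overlap was 4 without ROSji7_elji7 replicate 1, and was not made over all genes there.

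AnMG0005458300 (scaffold174, 1124145 to 1127274, minus strand) shows how small a separated contrast can be. It had 232, 130 and 128 CPM in ROSpse_elpse, 67.5, 166 and 62.7 in ROSji7_elji7, 98.3, 83.5 and 63.3 in ROSpse_ELstr and 61.1, 72.6 and 85.5 in ROSji7_ELstr. In rosdor_eldor it had 48.1, 51.5 and 38.0 CPM, in rosstr_ELstr 36.8, 41.6 and 33.1, and in the pale plants 58.6, 56.6 and 54.3. The 3 pale plants lay in the gap between the highest white (51.5) and the lowest dominant ROS plant (61.1). Per length the contrast of this gene, which has 4 transcripts, was smaller still. Its mean was 162 TPM over the dominant ROS genotypes and 127 TPM over the white ones. Whether its plants also separate in TPM was not tested.

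Plants that share an ID prefix allow a narrower view of the same chosen contrast. In prefix A181 the 3 ROSpse_elpse plants all exceeded the 1 rosdor_eldor plant in 47 of 60 members, against 31.2% of all genes. In prefix A174 the 3 ROSpse_ELstr plants all exceeded the rosdor_eldor plant, which is replicate 2, in 26 of 60 members, against 21.2% of all genes. Each of these rests on a single white plant.

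The pale corolla shows these genes under a ROS allele whose upstream part comes from *striatum*. The leading 6 genes were at dominant ROS levels in it, and the other 54 members were spread from below the white level to above the dominant one. The pale libraries were not used in the choice, but the white side was chosen low and the dominant side high, so a pale mean above the white or under the dominant ROS means is in part set by that choice. On a scale where 0 is the higher white mean and 1 the lowest dominant ROS mean, the leading 6 lay at 1.05 to 1.69 (median 1.30). The other 54 had a median of 0.637, with 18 at 1 or more, 19 between 0 and 1, and 17 at 0 or less. Over all 60 the median was 0.789. Without rosdor_eldor replicate 2 the median was 0.701 over all 60, 1.27 in the leading 6 (1.05 to 1.5) and 0.547 in the other 54.

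**Figure D3:**
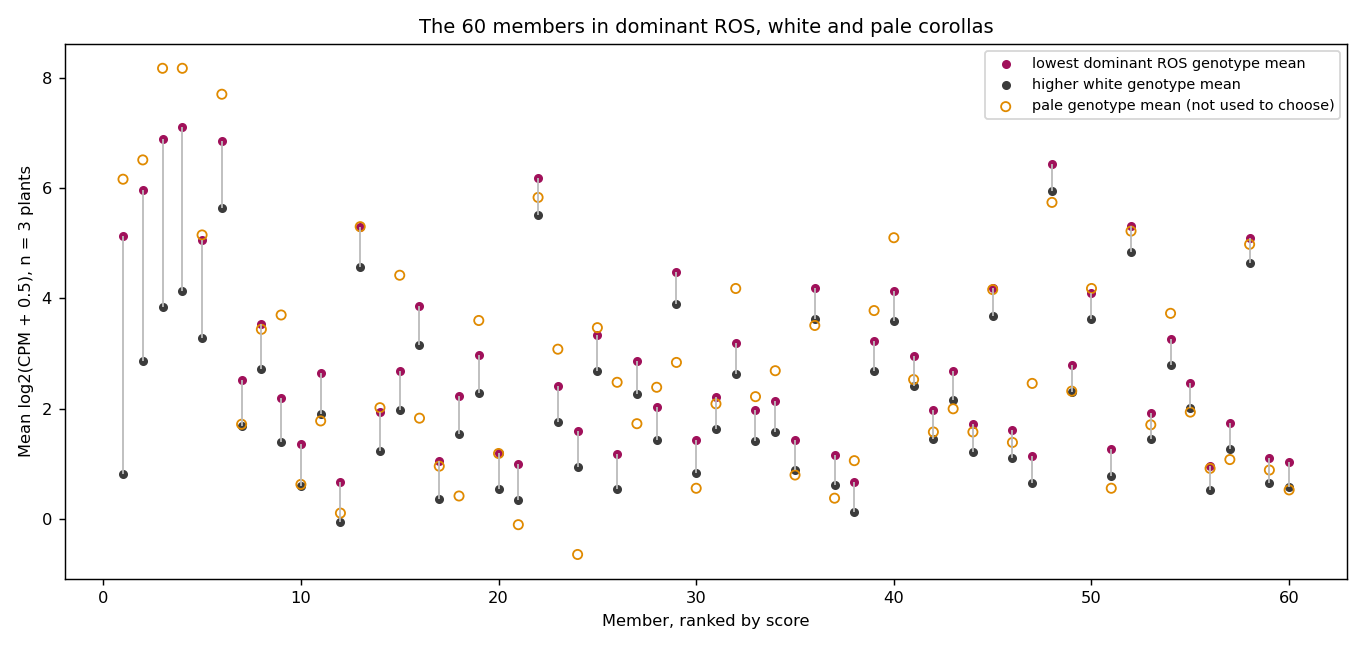
For each of the 60 members, in order of score, the lowest dominant ROS genotype mean, the higher white genotype mean and the pale genotype mean, all as mean log2(CPM + 0.5) over 3 plants. The pale mean lies above the lowest dominant mean in all of the first 6 members, and anywhere from below the white to above the dominant mean in the rest.

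All 3 pale plants exceeded all 6 white plants in 11 members, against 5.51% of all genes, and these held all 6 leading genes. Without rosdor_eldor replicate 2 they exceeded the other 5 white plants in 16 members, against 7.07% of all genes. All 3 pale plants lay under all 12 dominant ROS plants in 6 members, against 3.11% of all genes, none of them a leading gene. Against rosstr_ELstr, 54 members had a positive log2 fold change (median 0.90; all genes 0.00), and 2 rose past an edgeR adjusted p under 0.05, or 3.33% of members, where 1.84% of all genes were called. Against rosdor_eldor, 43 were positive (median 0.48; all genes -0.02), and edgeR called 0 members, where 3.21% of all genes were called. There 13 members had an unadjusted edgeR p under 0.05, as did 18.3% of all genes, and DESeq2 called 4, or 6.67% of members, against 7.79% of all genes. Without rosdor_eldor replicate 2, 55 members were positive (median 1.01; all genes 0.00), and edgeR called 4, against 2.70% of all genes. Means of the leading 6 in rosrec_elpse were 4.57 to 267 times those of rosstr_ELstr and 3.40 to 11.7 times those of rosdor_eldor. Without rosdor_eldor replicate 2 the latter ratios were 5.37 to 27.1 in 5 genes, and AnMG0008107300 had no rosdor_eldor reads to compare with. Their edgeR adjusted p values were 0.0295 to 0.0862 against rosstr_ELstr and 0.0823 to 0.194 against rosdor_eldor.

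The members that rose in pale against rosstr_ELstr were AnMG0008107300 and AnMG0006021300 (scaffold1390, 105410 to 106221, minus strand). For AnMG0008107300, with the values above, the log2 fold change was 7.96 ± 1.73 (SE, n = 3 per group; edgeR adjusted p 0.0295). AnMG0006021300 had 6.19, 4.78 and 4.43 CPM in the pale plants and 0.209, 0 and 0.158 in rosstr_ELstr, a log2 fold change of 5.27 ± 1.25 (SE, n = 3 per group; edgeR adjusted p 0.0408). Unlike the leading genes it was low in ROSpse_elpse, with 0.937, 1.21 and 4.25 CPM, and it reached 6.07 CPM in rosdor_eldor replicate 2. The size of both differences held when any 1 plant of these genotypes was left out, while the calls mostly did not. Without 1 rosstr_ELstr plant the log2 fold change was 7.46 to 8.42 for AnMG0008107300 (edgeR adjusted p 0.0965 to 0.102) and 4.77 to 5.85 for AnMG0006021300 (edgeR adjusted p 0.114 to 0.131). Without rosrec_elpse replicate 1 or 2 it was 7.71 and 7.90 for AnMG0008107300 (edgeR adjusted p 0.0632 and 0.0635). Without rosrec_elpse replicate 1, 2 or 3 it was 5.11, 5.32 and 5.36 for AnMG0006021300 (edgeR adjusted p 0.0895, 0.0807 and 0.0703). Over all genes the calls in this comparison fell from 455 to between 137 and 200 in these fits. With library number series as a term the log2 fold changes were 7.93 and 5.90, and the edgeR adjusted p was 0.0535 for AnMG0008107300, which ended its call, and 0.0379 for AnMG0006021300. Over all 11 alternatives the adjusted p ran from 0.000118 to 0.102 for AnMG0008107300 and from 5.79e-05 to 0.131 for AnMG0006021300.

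Against magenta ROSpse_elpse, 50 members were lower in pale corollas (median log2 fold change -0.76; all genes -0.01). Of them, 3 fell past the threshold, or 5.00% of members, where 13.6% of all genes were called in either direction. The share of members called was thus under the background. AnMG0004646600, with the values above, fell by 2.47 ± 0.638 on the log2 scale (SE, n = 3 per group; edgeR adjusted p 0.0176). AnMG0004329300 (scaffold1418, 68572 to 69226, plus strand), the second most abundant member per length with a mean of 319 TPM in dominant ROS genotypes, had 3.61, 7.17 and 11.1 CPM in pale plants. It had 17.0, 26.9 and 22.7 CPM in ROSpse_elpse, and its change was a fall by 1.60 ± 0.413 (SE, n = 3 per group; edgeR adjusted p 0.0175). Its pale mean, 7.30 CPM, was also under both white means, 15.7 and 13.5. AnMG0005458300, named outside the rule for named genes, fell by 1.53 ± 0.317 (SE, n = 3 per group; edgeR adjusted p 0.0052, range 8.68e-05 to 0.0272 over 11 alternatives, all past the threshold).

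The fall of AnMG0004646600 was smaller without ROSpse_elpse replicate 1, where it fell by 1.52 (edgeR adjusted p 0.101). Without rosrec_elpse replicates 2 and 3 it fell by 2.51 and 2.29, about as much as with all plants (edgeR adjusted p 0.0557 and 0.0707). Library number series as a term also ended this call (a fall by 2.29; edgeR adjusted p 0.0931). Over its 11 alternatives the adjusted p ran from 0.000771 to 0.101. AnMG0004329300 fell by 1.44 without ROSpse_elpse replicate 2 (edgeR adjusted p 0.0696), and by 1.26 and 1.58 without rosrec_elpse replicates 1 and 2 (edgeR adjusted p 0.0658 and 0.0581). With the series term it fell by 1.95 and kept its call (edgeR adjusted p 0.0187), in a range of 0.00156 to 0.0696 over 11 alternatives.

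The pale plants had 1 library in the low number series, 2 in the high series and none in the middle one, so values within a series rest on single plants and carry no test. In the low series, rosrec_elpse replicate 1 was lower than ROSpse_elpse replicate 1 in 49 members (median log2 difference -0.92; all genes -0.03), and in all 6 leading genes, by -0.91 to -3.17. AnMG0004646600 had 42.5 against 386 CPM in these plants. Their library numbers, 2492 and 1450, lie in different parts of the low series. The same pale plant was higher than rosdor_eldor replicate 1 in 39 members (median 0.30; all genes 0.00), and in all 6 leading genes by 2.69 to 7.61. In the high series, the mean of rosrec_elpse replicates 2 and 3 was higher than rosstr_ELstr replicate 1 in 50 members (median 0.92; all genes 0.00), and in all 6 leading genes by 2.07 to 6.02. In these single plants the leading genes were lower in pale than in magenta and higher than in white. Both directions are in part set beforehand. The rule chose the members low in white and high in dominant ROS, and ROSpse_elpse replicate 1 was the highest of its genotype in all 6 leading genes.

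The extremes of the pale scale show how unlike the members were. AnMG0000781400 (scaffold1279, 1474 to 7379, plus strand) had 4.21, 5.73 and 5.19 CPM in pale plants, against 1.04, 2.34 and 1.97 in ROSpse_ELstr, its lowest dominant genotype, and lay at 3.63 on the scale. AnMG0006430300 (scaffold81, 584697 to 585801, plus strand) lay at 3.44, with 19.2, 19.3 and 24.9 CPM in pale plants and a white range from 0 to 15.7. At the other end AnMG0000653800 (scaffold209, 37123 to 38595, plus strand) lay at -2.47, with 0.547, 0 and 0 CPM in pale plants. It had 1.64, 3.30 and 2.85 CPM in ROSpse_elpse and 2.58, 0.166 and 2.98 in rosstr_ELstr. AnMG0005373400 (scaffold313, 589249 to 595610, minus strand) lay at -1.89, with 0.766, 10.2 and 2.83 CPM in pale plants against 5.62 to 12.6 over the 6 white ones. None of these 4 passed the edgeR threshold in a pale comparison, and their scale values rest on small gaps between white and dominant means.

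The eluta comparisons set a dominant EL allele against a recessive one beside the same dominant ROS allele. Beside *pseudomajus* ROS, ROSpse_ELstr had a negative fold change against ROSpse_elpse in 40 members and a positive one in 20 (median on the log2 scale -0.13; all genes 0.00). There 1 member, 1.67%, was called, where 2.82% of all genes were called. It was AnMG0004646600, which fell by 2.48 ± 0.639 (SE, n = 3 per group; edgeR adjusted p 0.0461), with no overlap between 386, 140 and 64.2 CPM and 46.4, 38.8 and 20.5 CPM. The other 5 leading genes had log2 fold changes of -1.26 to -1.79, with edgeR adjusted p values of 0.368 to 0.651, so a fall was not separable from the spread of the plants. This call held in 3 of 13 alternatives (range 0.00184 to 0.341). Without ROSpse_elpse replicate 1 the gene fell by 1.54 (edgeR adjusted p 0.193). Without ROSpse_elpse replicate 2 it fell by 2.68 (edgeR adjusted p 0.0848), and without ROSpse_ELstr replicates 1, 2 and 3 by 2.74, 2.57 and 2.21 (edgeR adjusted p 0.0812, 0.159 and 0.149), sizes near that with all plants. With library number series as a term it fell by 2.38 (edgeR adjusted p 0.0563) and in the middle series alone by 1.79 (edgeR adjusted p 0.341), each of which ended the call. With plant ID prefix as a term the fall was 4.03. That term is set by rosdor_eldor alone, the only genotype with more than 1 prefix. The value of 4.03 thus rests on rosdor_eldor replicates 1 and 2, with 6.19 and 18.1 CPM, 1 plant per prefix.

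Beside the JI7 ROS allele, 36 members were lower and 24 higher in ROSji7_ELstr than in ROSji7_elji7 (median -0.05; all genes -0.03). EdgeR called 0 members and 0.19% of all genes, with 1 member at an unadjusted p under 0.05, and DESeq2 called 0. The leading 6 had log2 fold changes of -0.22 to 0.13, each with an SE of 0.606 to 1.21. The difference between the EL effects beside the ROS sources was tested as an interaction. EdgeR called 0 members and 0.494% of all genes, with 3 members at an unadjusted p under 0.05, and DESeq2 called 0. All 6 leading genes had a negative interaction, of -1.25 to -2.59 on the log2 scale, with edgeR adjusted p values of 0.222 to 0.802, so a different EL effect by ROS source was not shown.

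Between the magenta genotypes, 35 members were higher and 25 lower in ROSpse_elpse than in ROSji7_elji7 (median 0.08; all genes -0.05). There 1 member, 1.67%, was called, where 4.62% of all genes were called. It was AnMG0007294200 (scaffold1038, 53332 to 58292, minus strand), named outside the rule, since its groups overlap. It had 4.90, 138 and 103 CPM in ROSji7_elji7 and 6.18, 4.13 and 5.67 in ROSpse_elpse, and fell by 3.95 ± 1.04 (SE, n = 3 per group; edgeR adjusted p 0.0413). The high values were those of 2 plants. The gene fell by 3.35 when ROSji7_elji7 replicate 2 was left out and by 3.75 when replicate 3 was (edgeR adjusted p 0.0752 and 0.0671), and by 4.06, 3.79 and 3.99 without ROSpse_elpse replicates 1, 2 and 3 (edgeR adjusted p 0.0949, 0.125 and 0.108). With library number series as a term it fell by 3.69 (edgeR adjusted p 0.0578), which also ended the call, in a range of 0.000533 to 0.145 over 12 alternatives. Without ROSji7_elji7 replicate 2 other members were called, 2 higher and 0 lower in ROSpse_elpse, where 1298 of all genes were called. Without ROSpse_elpse replicate 3 there was 1 higher and 0 lower, where 504 of all genes were called, so the direction of the calls turned. The leading 6 were all higher in ROSpse_elpse, by 1.27 to 2.24 on the log2 scale, with edgeR adjusted p values of 0.052 to 0.549.

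Between the eluta genotypes, ROSpse_ELstr had a positive fold change against ROSji7_ELstr in 26 members and a negative one in 34 (median -0.05; all genes -0.01). EdgeR called 0 members and 0.608% of all genes, with 1 member at an unadjusted p under 0.05, and DESeq2 called 1. The leading 6 had log2 fold changes of -0.39 to 0.39. The interaction above is the test of the difference between the magenta and the eluta pair. These comparisons share libraries with each other.

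Between the white genotypes, 53 members were lower and 7 higher in rosstr_ELstr than in rosdor_eldor (median -0.59; all genes -0.01). EdgeR called 0 members and 0.077% of all genes, with 5 members at an unadjusted p under 0.05, and DESeq2 called 2. EdgeR called 1 and 2 members, all lower in rosstr_ELstr, without rosstr_ELstr replicates 2 and 3, where 14 and 52 of all genes were called. The lean to lower values rested on rosdor_eldor replicate 2: without it, 32 members were higher and 28 lower in rosstr_ELstr (median 0.05; all genes 0.01), and edgeR again called 0. The leading 6 means in rosdor_eldor were 1.35 to 25.7 times those of rosstr_ELstr with all plants. For AnMG0008107300, at the upper end, the whole rosdor_eldor level came from replicate 2, with 21.5 CPM against 0 in replicates 1 and 3.

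Plants of the same genotype differed widely in the members. The median SD of log2(CPM + 0.5) over the 60 was 0.37 to 0.72 in the genotypes other than rosdor_eldor and 1.02 in rosdor_eldor, against 0.20 to 0.34 over all genes tested. Rosdor_eldor held 31.7% of the members' squared deviations from genotype means, against 20.8% over all genes, and its replicate 2 was the highest of its 3 plants in 43 members. Choosing the largest differences between means of 3 plants favours genes with a wide spread. The wider spread of the members is thus in part set by the rule, and the genes compared were not matched for level. The members did not deviate as a block. Over 21 libraries, deviations from genotype means had a mean Pearson r of 0.128 over 1770 pairs of members (range -0.825 to 0.974; mean over all gene pairs 0.00176), and 256 pairs (14.5%) had r above 0.5. These points share library depth and scaling.

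The leading 6 genes did move together from plant to plant. Their 15 pairs had residual r of 0.558 to 0.974 (median 0.773, 21 libraries). The closest pair was AnMG0005507800 with AnMG0005604500 and the loosest AnMG0005507800 with AnMG0004646600. Without rosdor_eldor (18 libraries) the range was 0.629 to 0.972, and over the 13 middle series libraries 0.584 to 0.983. The plants that carried these deviations were the same in each gene: ROSji7_elji7 replicate 2 was the highest and replicate 1 the lowest of its genotype in all 6, and rosdor_eldor replicate 2 was the highest in all 6. ROSpse_ELstr replicate 3 and rosrec_elpse replicate 3 were the lowest in all 6, and ROSpse_elpse and rosrec_elpse replicate 1, both of the low number series, were the highest in all 6. In 5 genotypes 1 library was of the low series, and it was the highest for at least 4 of the 6 genes in 3 of them. The part of library series in these deviations was not tested.

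The other 54 members had a median residual r of 0.272 with the mean of the leading 6 (range -0.636 to 0.902; all genes -0.00184), and a mean r of 0.103 among themselves. For the mean of the leading 6, each gene's deviations were first scaled to the same sum of squares. AnMG0005239800 (scaffold666, 117835 to 120530, plus strand) was the closest, at 0.902. It had 53.4, 14.2 and 10.4 CPM in ROSpse_elpse, 1.72, 10.9 and 4.78 in ROSji7_elji7, and 28.7, 12.2 and 5.46 in pale plants. Its white values were 2.15, 5.27 and 0.706 CPM in rosdor_eldor and 1.18, 0.864 and 1.53 in rosstr_ELstr. AnMG0005487610 (scaffold707, 360575 to 362469, plus strand) followed, at 0.851. In both, the highest plants of ROSji7_elji7, ROSpse_elpse and rosrec_elpse were those of the leading genes. Both were named after their values were seen. AnMG0001053000, at -0.636, deviated in the opposite direction to the leading genes.

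Of all 24674 genes, 14 had an r of at least 0.8 with the mean of the leading 6: 5 of the 6 themselves, which enter that mean, the 2 members just described, 6 genes outside the list and 1 gene on a sequence the rule left out. That gene was AnMG0000144700, at 541660 to 544383 on the plus strand of ros_assembly, with r = 0.841 (21 libraries), the ninth highest. It was 0.805 without rosdor_eldor and 0.823 over the middle series. Its CPM was 49.0, 21.9 and 12.5 in ROSpse_elpse, 6.13, 55.3 and 21.1 in ROSji7_elji7, 58.7, 29.7 and 32.7 in ROSpse_ELstr, and 58.5, 57.8 and 77.6 in ROSji7_ELstr. It had 27.8, 27.8 and 18 CPM in pale plants, 0.884, 1.72 and 0.0847 in rosdor_eldor and 2.72, 1.79 and 1.71 in rosstr_ELstr. Its highest genotype was ROSji7_ELstr, not ROSpse_elpse, so it shared with the leading genes the deviations within genotypes and the low white level but not the order of dominant ROS genotypes. The other 54 members had a median r of 0.154 with it (range -0.63 to 0.847).

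**Figure D4:**
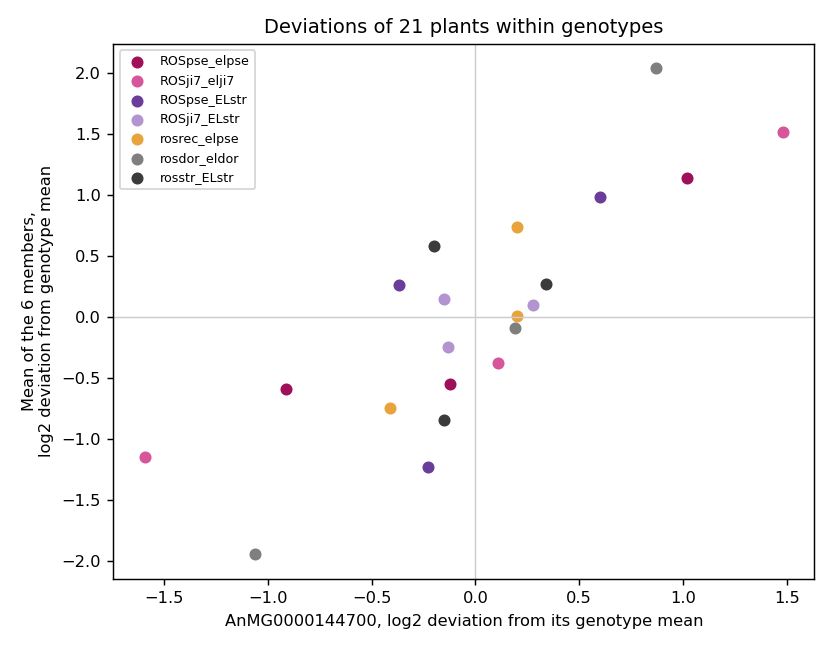
Each of 21 plants by its log2(CPM + 0.5) deviation from its own genotype mean, for AnMG0000144700 on ros_assembly (x axis) and for the mean of the 6 members with the highest scores (y axis), coloured by genotype. The deviations run together, with rosdor_eldor and ROSji7_elji7 plants at the ends. The r of 0.841 in the text was taken with each gene's deviations scaled to the same sum of squares before averaging. The y axis averages unscaled deviations.

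Apart from the leading 6, which genotype was highest varied. By mean CPM, 24 of the 60 members were highest in ROSpse_elpse, 19 in ROSji7_elji7, 8 in ROSji7_ELstr, 6 in ROSpse_ELstr and 3 in pale rosrec_elpse. The leading 6 all fell in the ROSpse_elpse class. Over all genes tested, 20.7% were highest in ROSpse_elpse, 20.5% in ROSji7_elji7, 11.4% in ROSji7_ELstr, 10.9% in ROSpse_ELstr and 20.0% in rosrec_elpse. None of the members was highest in a white genotype, an outcome that the rule favours.

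In length and number of transcripts, which the rule did not use, the members are set beside the 19113 genes that could have passed it. The median longest transcript was 1394.5 bp in members and 1588 bp in those genes, and 55.0% of members against 62.8% had 1 transcript. The median level over dominant ROS genotypes, which the rule bounded from below, was 12.2 TPM against 18.5 TPM, while the leading 6 ran from 46.6 to 467 TPM. The members lay on 47 sequences. Scaffold121 held 6 members, 10.0% of the list, and 1.06% of the genes tested, and scaffold1306 and scaffold270 held 3 each. AnMG0001997300 and AnMG0001997100, 1542 bp apart on scaffold1306, had a residual r of 0.802. These features were not tested against other genes.

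Some members may share reads. Of the 60, 15 (25%, against 20.9% of the genes that could have passed the rule) overlapped another gene on the same strand, and 5 (8.33%, against 3.47%) were placed with an identity under 99%. AnMG0004967210 and AnMG0107382210 had the same placement on scaffold621 (175831 to 195654, plus strand), with identities of 91.51% and 91.46%, and a residual r of 0.374. AnMG0005319700 (642194 to 643213) lay wholly within AnMG0005319500 (640209 to 644933), both on the minus strand of scaffold270, with a residual r of 0.93. Estimated reads may be split between the genes of each pair, so their separate values are uncertain and each pair may count 1 gene as 2 members. None of the 6 leading genes overlapped another gene on its strand.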

How the data were processed

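For each library the authors deposited an estimated count (expected count) and a TPM value per transcript in Salmon's format, per the file headers, and a placement of transcripts on the JICv1 assembly with the authors' alignment score. Cutadapt 1.16, Salmon 0.9.1 and DESeq2 are named in the submitters' processing notes, with no role. Settings and use of strand are not given in the sources used here. Deposited TPM served only to compare levels between genes per length, and the deposited score only to pick a placement.

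Estimated counts of 51926 transcripts were summed to 37234 genes by shared ID and rounded. The filter of 0.5 CPM or more in 3 or more libraries left 24674 genes. All 21 libraries entered 1 fit of edgeR 4.0.16 (R 4.3.3, limma 3.58.1) with TMM scaling and 1 mean per genotype, and the quasi-likelihood F test was adjusted by Benjamini-Hochberg over all genes tested, with calls under 0.05. The SE is the size of the log2 fold change over the root of F, and the biological coefficient of variation was 0.400. The fit was tested on simulated data. Labels give 1 plant per library, and no more is known of how the plants relate, so p-values measure the spread between these plants.

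Replicate pairs had a Spearman rho of 0.910 to 0.981 across genes, and chi-square of their counts over its degrees of freedom was 30.9 to 163 (21 pairs), so no library was taken as a copy. Named genes were the 2 with the highest score, those at the end of the list, up to 2 called rises and 2 falls per comparison without overlap, the extremes of the pale scale, the most abundant and the closest pairs. Others were chosen after their values were seen. The members, lists and comparisons were chosen with earlier results of these data known. Alternatives were DESeq2 1.42.0, its size factors, no filter, only the groups compared, library number series or plant ID prefix as a term, each plant left out, and for the rule other pseudocounts (0.1, 2) and CPM minimums (0.5, 5). A fit of the middle series by itself was chosen after seeing the data, as were the values without rosdor_eldor replicate 2 and those within a series for the pale plants. The floor of 3 reads covers counting error only.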

Additional observations from a re-analysis of the deposited data

How the results depend on the processing

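With 3 plants per genotype, most member differences under several-fold could not be separated from plant spread. Of 277 alternative values, 189 kept their direction and side of the threshold or stayed within 1.5 times, 48 counts moved further and 40 calls were lost. No fold change of a named gene reversed. For ROS source in magenta, however, the called members turned from 1 lower to 2 higher without ROSji7_elji7 replicate 2 (1298 of all genes called). They turned to 1 higher without ROSpse_elpse replicate 3 (504 of all genes called). DESeq2 called 4 members higher in pale against rosdor_eldor (7.79% of all genes called), 13 higher in pale against rosstr_ELstr (6.52%), 6 lower in pale against ROSpse_elpse (19.4%) and 3 lower for EL beside *pseudomajus* ROS (6.21%). It called 2 between ROS sources in magenta, 1 in each direction (12.0%), 1 lower in eluta (2.25%), 2 lower in rosstr_ELstr than in rosdor_eldor (0.478%) and 26 higher in dominant ROS against white (2.96%). Without the filter, pale against rosstr_ELstr gave 1 and EL beside *pseudomajus* ROS 0, where 271 and 533 of all genes were called. With only the groups compared, pale against rosstr_ELstr gave 5 of the 57 members tested, where 218 of all genes were called. EL beside *pseudomajus* ROS and ROS source in magenta then gave 0, where 514 and 258 of all genes were called. With library series as a term, ROS source gave 0 in magenta and 1 in eluta, where 1229 and 231 of all genes were called. In the middle series alone EL beside *pseudomajus* ROS and ROS source in magenta gave 0, where 178 and 518 of all genes were called. Plant ID prefix as a term could be fitted for 2 comparisons only, EL beside *pseudomajus* ROS and the white genotypes. In both, the term is set by rosdor_eldor, which has 1 plant per prefix. The calls of this fit rest on single plants and are not set beside the others. Between the white genotypes it sets the 3 rosstr_ELstr plants against rosdor_eldor replicate 3 alone. That plant had the lowest member median of all, 0.91 on the log2(CPM + 0.5) scale. Leaving out 1 plant gave 0 to 4 calls in pale against rosdor_eldor, 0 to 1 against rosstr_ELstr, 2 to 3 against ROSpse_elpse, 0 to 1 for EL beside *pseudomajus* ROS, 0 to 2 for ROS source in magenta, 0 to 2 between white genotypes, 4 to 20 in dominant ROS against white and 2 to 17 members without overlap. Over all genes, the same fits called 207 to 664, 137 to 200 and 1569 to 3090 in the pale comparisons, in that order. They called 162 to 513 for EL beside *pseudomajus* ROS and 316 to 1298 for ROS source in magenta. Between white genotypes they called 10 to 52, and in dominant ROS against white 62 to 488. The rule kept 29 to 56 members without 1 plant (29, 33 and 38 without rosdor_eldor replicates 3, 1 and 2) and 33 at a minimum of 5 CPM. The causes were not tested. No paired analysis was possible because the labels give no numbers that pair plants across genotypes.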
